A study of Mus musculus with 8 samples.

Results

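The SLC2 family of facilitative transporters (GLUTs) was examined in RNA-Seq data of whole kidneys, to ask which members differ in level when c-Maf is deleted in the adult. The members were 10 rows of the gene count table selected by name, *Slc2a1*, *Slc2a2*, *Slc2a3*, *Slc2a4*, *Slc2a5*, *Slc2a8*, *Slc2a9*, *Slc2a10*, *Slc2a12*, and *Slc2a13*, of 55367 genes listed. All 10 passed the filter on low counts and were tested among 20149 genes. The libraries came from 4 *c-Maf* ΔTAM mice, the Maf conditional KO of the labels (KO mice), and 4 *c-Maf* fl/fl mice, the Maf flox/flox of the labels (flox mice). Both genotypes were on C57BL/6J, carried floxed *c-Maf*, and were 8 weeks old by the labels. Both had been given tamoxifen (TAM). The KO mice additionally carried CAG-Cre-ER TM, in which a promoter active in most tissues drives the Cre recombinase, so the deletion was not limited to the kidney or to a cell type. Each sample was bulk RNA of a whole kidney, in which fewer cells of a type and less RNA per cell cannot be told apart.

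GLUT proteins move hexoses and related small solutes across membranes down their concentration gradient, without coupling to sodium. In the proximal tubule, filtered glucose enters the cell from the lumen with sodium, through SGLT2 (*Slc5a2*) in the early segments and SGLT1 (*Slc5a1*) in the late segment. It leaves across the basolateral membrane through GLUT2 and GLUT1. The family is divided by sequence into class I (GLUT1 to GLUT4), class II, which includes the fructose transporter GLUT5 and the urate transporter GLUT9, and class III, which includes GLUT8, GLUT10, GLUT12, and the proton-coupled *myo*-inositol transporter HMIT (*Slc2a13*). c-Maf is a basic leucine zipper factor that binds Maf recognition elements, which extend the core sites bound by AP-1 and CREB factors.

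The RefSeq table used here (GRCm38.p6) holds promoter windows, 250 bases before to 50 bases after the annotated start, for 8 members, without *Slc2a3* and *Slc2a4*. They are shown for the member that passed the test, *Slc2a2*, for the member with the next smallest *P* value, *Slc2a12*, and for the only member with a match to a longer c-Maf-related motif, *Slc2a9*. Each runs 5′ to 3′ on the gene's strand. Capitals mark TGACTCA, the core of the TRE type of Maf element, and the shorter Maf core GCTGA, which reads TCAGC on the other strand. The windows lie at chr3:28697653-28697952 (plus strand, *Slc2a2*), chr10:22644761-22645060 (plus strand, *Slc2a12*), and chr5:38483336-38483635 (minus strand, *Slc2a9*).
Slc2a2: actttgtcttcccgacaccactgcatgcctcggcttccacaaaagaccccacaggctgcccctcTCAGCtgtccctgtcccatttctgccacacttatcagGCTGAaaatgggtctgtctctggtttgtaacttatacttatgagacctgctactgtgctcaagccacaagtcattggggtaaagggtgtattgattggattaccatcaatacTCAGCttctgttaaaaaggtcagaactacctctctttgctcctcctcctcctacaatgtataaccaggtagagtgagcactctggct
Slc2a12: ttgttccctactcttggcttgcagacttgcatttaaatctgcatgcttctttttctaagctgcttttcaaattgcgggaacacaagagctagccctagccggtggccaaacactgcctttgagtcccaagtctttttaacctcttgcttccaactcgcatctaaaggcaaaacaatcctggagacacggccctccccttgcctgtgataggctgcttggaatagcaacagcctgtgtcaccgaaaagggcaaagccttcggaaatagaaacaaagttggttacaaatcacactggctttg
Slc2a9: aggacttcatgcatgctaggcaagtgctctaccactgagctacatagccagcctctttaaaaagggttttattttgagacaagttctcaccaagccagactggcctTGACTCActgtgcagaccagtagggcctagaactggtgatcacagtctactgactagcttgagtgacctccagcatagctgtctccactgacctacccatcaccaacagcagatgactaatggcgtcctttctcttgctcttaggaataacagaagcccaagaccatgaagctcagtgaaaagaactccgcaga

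The motifs were searched on both strands. The Maf site TGCTGAC, found in 4.67% of all 32851 windows, was in 0 of the 8 member windows, as was the CRE core TGACGTCA (1.79% of all windows). TGACTCA, present in 5.20% of all windows, was in *Slc2a9* alone, at bases -144 to -138 from the start. GCTGA is contained in TGCTGAC and was added to the search after the longer motifs had been examined. It was in 54.2% of all windows and in 3 of 8 member windows. *Slc2a2* held it 3 times, at -186 to -182, -149 to -145, and -37 to -33, whereas *Slc2a5* and *Slc2a8* held it once each and *Slc2a12* did not hold it. These matches are descriptions of letters in 300 bases around a single annotated start per gene, and the *Slc2a9* gene extends beyond its window on the 5′ side, to base 38503143.

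The targeted gene was checked first. *Maf* had 9.06, 34.5, 29.6, and 10.1 CPM (read counts scaled to a common library size with TMM factors) in KO mice 1 to 4 and 379.9, 342.2, 305.4, and 351.1 CPM in flox mice 1 to 4, without overlap. The log2 fold change of *Maf*, always given as KO relative to flox mice, was -4.05 (SE 0.512, adjusted *P* = 0.0115). Totals ranged from 16649129 to 22990257 counts per mouse, and mitochondrial genes took 17.1% to 32.3%, with the highest share in KO mouse 1. *Xist* was low (2 to 22 counts, with 2293 to 2886 counts on Y-linked genes) in KO mouse 1 and flox mice 3 and 4. It was high (17618 to 22387 counts, with at most 12 counts on Y-linked genes) in the remaining 5. No label gives a sex, but these counts are those of 3 males (1 KO, 2 flox) and 5 females (3 KO, 2 flox), so the sexes were not balanced between genotypes. Some results below are therefore also given with the *Xist* level as a covariate or in the 5 mice with high *Xist*. The extraction text of the labels names liver although the source is kidney. Of 7 hepatocyte markers, *Ahsg* had 0 counts in every library and the other 6 were detected in every library, *Alb* with 13 to 196 counts and *Fga* with 364 to 970, and the 7 summed to 34.4 to 61.3 CPM. The proximal tubule gene *Lrp2* had at least 87774 counts.

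Of the 10 members, *Slc2a2* fell in KO kidneys and no other member passed an adjusted *P* of 0.05 in edgeR's quasi-likelihood test. Across all tested genes, 2.16% passed, 1.58% as lower and 0.586% as higher. The estimates of 6 members were lower and of 4 higher, and the median log2 fold change was -0.13 over the members and 0.00 over all tested genes. The genotypes did not overlap for 2 members, *Slc2a2* and *Slc2a12*, against 9.79% of all genes. At an unadjusted *P* under 0.05 were 3 members, *Slc2a2*, *Slc2a12*, and *Slc2a4*, against 14% of all tested genes.

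**Figure D1:**
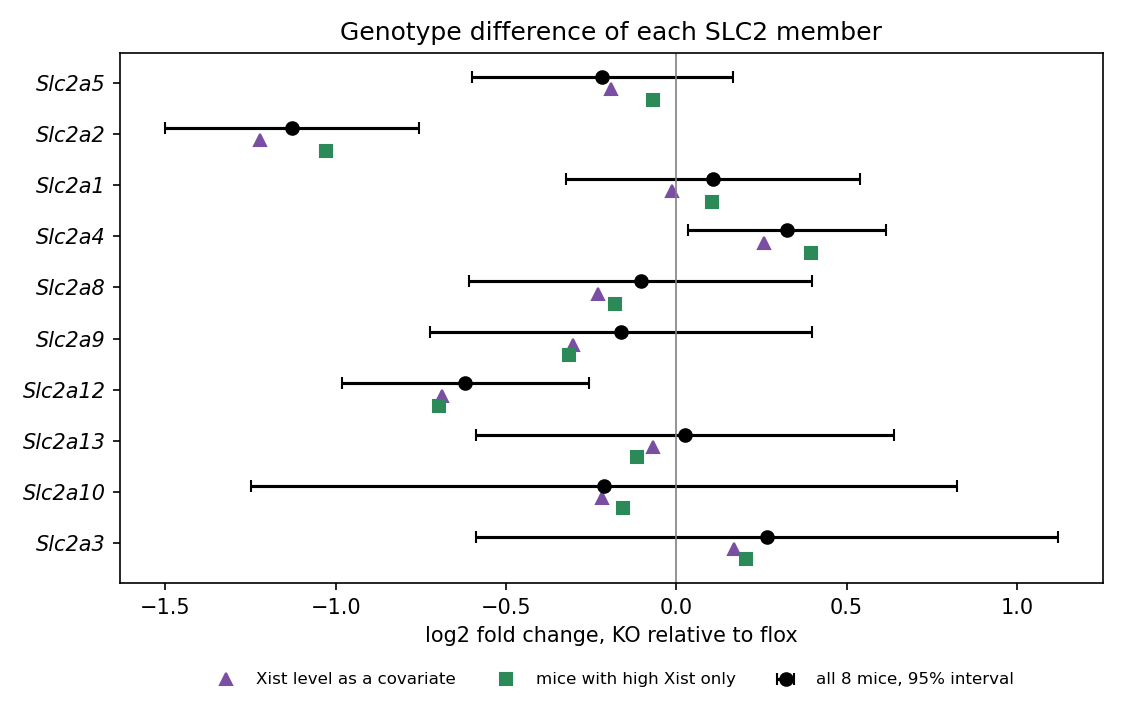
Log2 fold change of each SLC2 member, KO relative to flox mice (x axis), for the 10 genes ordered by their level in flox kidneys (y axis). Black points and bars are estimates over all 8 mice with 95% intervals, triangles the fit with the *Xist* level as a covariate, and squares the 5 mice with high *Xist*. *Slc2a2* lies between -1.22 and -1.03 in these fits, *Slc2a12* between -0.70 and -0.62, and the interval of *Slc2a4* ends just above 0.

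To compare members with each other, levels were divided by exon length. In flox kidneys, *Slc2a5* (26.7 ± 3.34 CPM per kb, SD, n = 4) and *Slc2a2* (26.6 ± 1.83) had the highest levels, and their ranges overlapped. *Slc2a1* followed at 14.9 ± 2.38 and *Slc2a4* at 7.31 ± 0.764 CPM per kb, each apart from its neighbors in the order. *Slc2a8* (4.74 ± 1.13), *Slc2a9* (4.01 ± 1.19), and *Slc2a12* (2.66 ± 0.395) formed a group in which each range overlapped the next. *Slc2a13* lay below them at 1.19 ± 0.334, and *Slc2a10* (0.259 ± 0.123) and *Slc2a3* (0.138 ± 0.0398) were lowest and overlapped.

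In KO kidneys the order of these levels was the same except that *Slc2a2*, at 12.1 ± 3.24 CPM per kb, stood below *Slc2a1*, at 16.04 ± 4.28. This exchange rests on exon length and overlapping ranges, and on CPM alone *Slc2a2* stayed above *Slc2a1* in KO kidneys (69.9 against 56.2 CPM). The ranges of the 4 highest members, *Slc2a5*, *Slc2a1*, *Slc2a2*, and *Slc2a4*, each overlapped the next. The range of *Slc2a9*, by contrast, no longer overlapped that of *Slc2a12*.

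**Figure D2:**
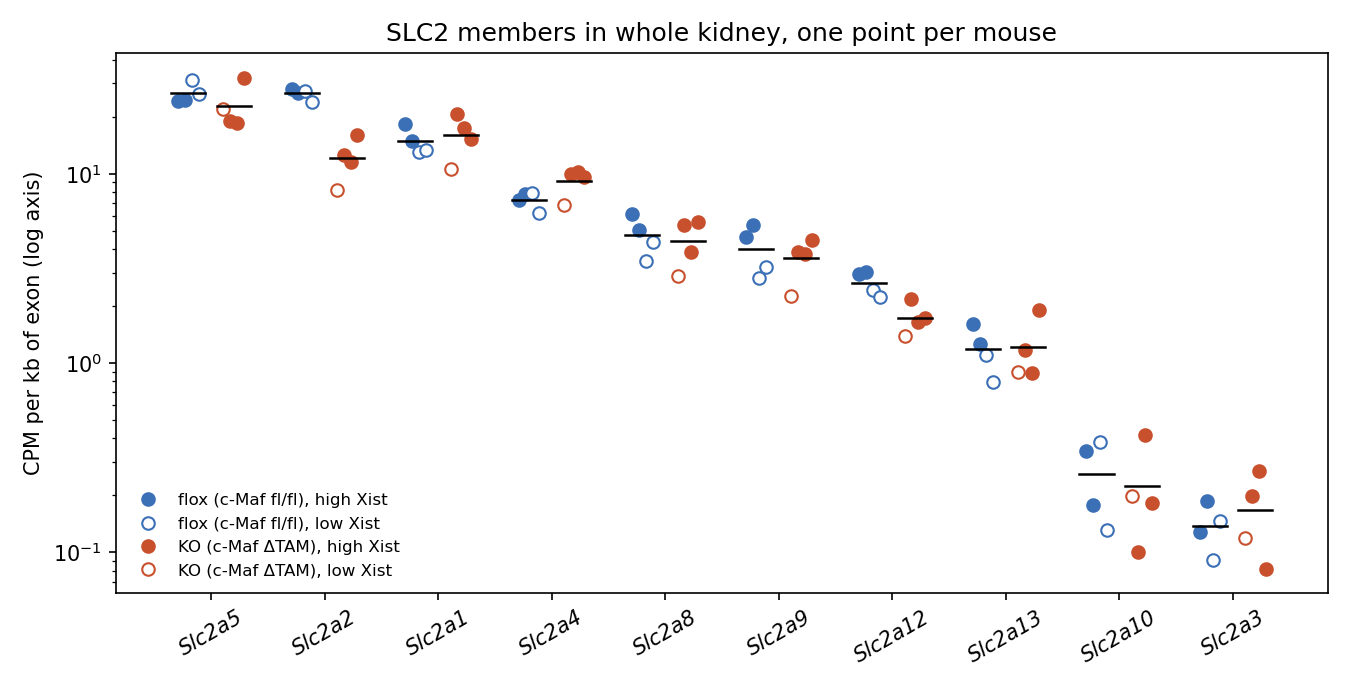
Level of each SLC2 member in CPM per kb of exon (log axis), with 1 point per mouse, genotype by color, filled points for high *Xist*, open points for low *Xist*, and bars for genotype means. *Slc2a2* is the member among the higher 4 whose genotypes are apart, and *Slc2a10* and *Slc2a3* lie lowest.

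Summed over the 10 members, the level was 88.4 ± 5.46 CPM per kb in flox and 71.6 ± 13.2 in KO kidneys. Without *Slc2a2* the sums were 61.9 ± 3.64 and 59.5 ± 9.98. *Slc2a2* made up 30.03% ± 0.312 of the sum in flox kidneys, with a range of 29.7% to 30.4%, and 16.8% ± 1.48 in KO kidneys, with a range of 14.9% to 18.5%. The share of *Slc2a4* was 8.26% ± 0.591 against 12.9% ± 1.64, that of *Slc2a1* 16.8% ± 2.06 against 22.4% ± 4.89, and that of *Slc2a5* 30.2% ± 4.24 against 32.2% ± 7.17. Shares add to a fixed sum, so a lower share of *Slc2a2* raises the others, and no test was made on them. The relative size of the shares rests on exon length, and on CPM alone *Slc2a2* took 40.2% and 24.0%.

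**Figure D3:**
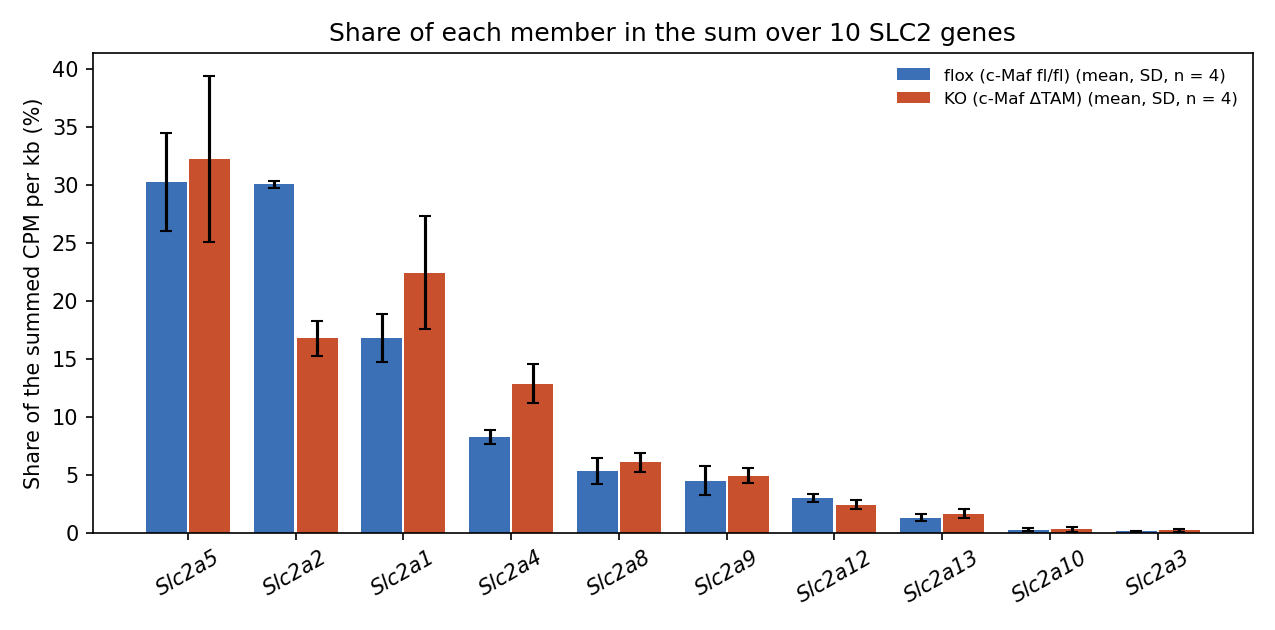
Share of each SLC2 member in the sum of CPM per kb over the 10 members (y axis, percent), as the mean of 4 mice with SD, for flox and KO kidneys. The *Slc2a2* bar falls from 30.03% to 16.8%, and those of *Slc2a1* and *Slc2a4* are higher in KO kidneys.

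*Slc2a2* (GLUT2) encodes the low-affinity, high-capacity carrier of the basolateral membrane of the early proximal tubule, which is also the GLUT of hepatocytes. It lies on chromosome 3 at 28697903 to 28731359, plus strand. It had 162.2, 153.7, 157.6, and 138.0 CPM in flox mice 1 to 4 and 47.5, 72.7, 66.8, and 92.7 CPM in KO mice 1 to 4. All KO values lay below all flox values, and the former varied more (coefficient of variation 26.7% against 6.88%). The mean fell from 152.9 ± 10.5 to 69.9 ± 18.6 CPM, a ratio of 0.457, with a log2 fold change of -1.13 (SE 0.168, 95% interval -1.501 to -0.756, adjusted *P* = 0.0062). The exact two-sided permutation test gave *P* = 0.0286, the smallest that 4 against 4 mice allow.

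The decrease in *Slc2a2* was also seen within each *Xist* class. In the mice with high *Xist* its level was 77.4 CPM on average in KO and 157.9 CPM in flox mice, and in those with low *Xist* 47.5 CPM in the single KO mouse and 147.8 CPM in flox mice. The log2 fold change was -1.22 with the *Xist* level as a covariate (adjusted *P* = 0.000493) and -1.03 in the 5 mice with high *Xist* (adjusted *P* = 0.00062). With the replicate number as a block it was -1.17 and did not pass (adjusted *P* = 0.056). KO mouse 1 had the lowest value, and without it the log2 fold change was -0.98. The order of *Slc2a2* within the KO mice was not the order of remaining *Maf*, because mouse 4, with 10.1 CPM of *Maf*, had the highest *Slc2a2*. None of the exonic bases of *Slc2a2* overlap exons of another gene.

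**Figure D4:**
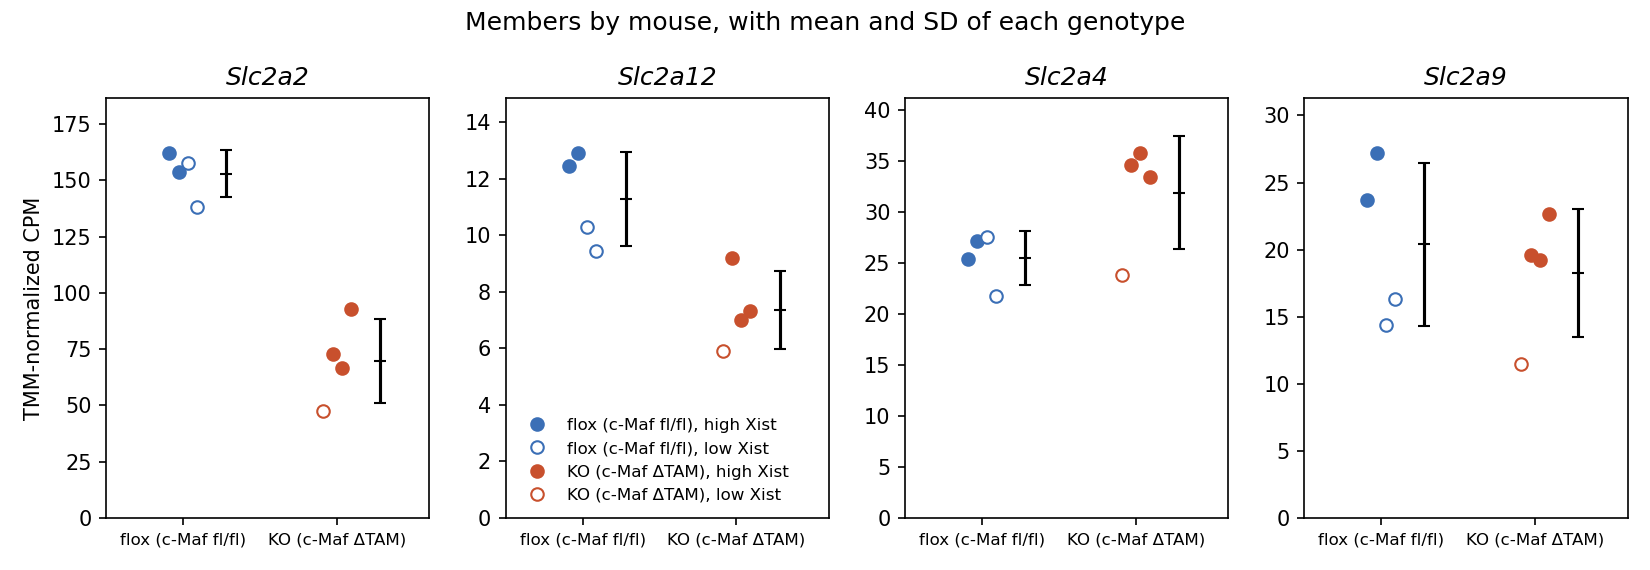
TMM-normalized CPM of *Slc2a2*, *Slc2a12*, *Slc2a4*, and *Slc2a9* in each mouse (y axes start at 0), with genotypes on the x axis, filled points for high and open points for low *Xist*, and mean with SD beside them. *Slc2a2* and *Slc2a12* are apart between genotypes, 3 of 4 KO mice lie above all flox mice for *Slc2a4*, and *Slc2a9* is lower in mice with low *Xist* in both genotypes.

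Markers of proximal tubule and of other cells also differed between the genotypes. The summed level of 7 markers of the S1 and S2 segments was 7817 to 11674 CPM in KO and 13986 to 16009 CPM in flox kidneys, without overlap, and none of the 7 was at 0. Of these 7, *Slc5a2*, *Gatm*, *Slc5a12*, and *Slc34a1* fell, with log2 fold changes of -3.71, -3.78, -1.71, and -1.23. *Slc13a3* had -0.87, without overlap (adjusted *P* = 0.0763). *Lrp2* (megalin) and *Cubn* (cubilin), the endocytic receptors of the same cells, had values of -0.17 (adjusted *P* = 0.719) and -0.03 (adjusted *P* = 0.912). The summed level of 6 endothelial markers was also lower, at 391 to 407 against 417 to 477 CPM, and that of 7 macrophage and leukocyte markers higher, at 113 to 126 against 97.8 to 107 CPM, with 1 (*Kdr*, lower) and 0 members called. The sum of 4 adrenal markers, nearly all of it *Star*, was 5.65 to 6.43 against 6.57 to 9.34 CPM, with 0 called. Whether these differences have a part in that of *Slc2a2* was not tested.

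*Slc5a2*, which brings glucose into the same early tubule cells, showed the larger log2 fold change. It had 8.19, 38.5, 31.2, and 20.2 CPM in KO mice 1 to 4 against a mean of 321.4 ± 17.3 CPM in flox mice (log2 fold change -3.71, SE 0.461, adjusted *P* = 0.0101). Per kb of exon, *Slc5a2* was 4.02 to 4.35 times the level of *Slc2a2* in flox kidneys and 0.343 to 1.05 times in KO kidneys, so the ratio of entry to exit carrier differed without overlap. *Slc5a1*, the carrier of the late segment, had 79.1 ± 10.2 against 65.7 ± 5.31 CPM (log2 fold change 0.27, SE 0.105, adjusted *P* = 0.272), which did not pass.

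*Slc2a1* (GLUT1), the widely expressed carrier of basal glucose supply, is found in the kidney on the basolateral side of later nephron segments. It had 37.2, 72.9, 61.4, and 53.4 CPM in KO mice 1 to 4 and 63.9, 52.3, 45.5, and 47.0 CPM in flox mice 1 to 4. The genotypes overlapped, and KO mouse 1 held the lowest value of all. The log2 fold change was 0.11 (SE 0.192, 95% interval -0.32 to 0.54, adjusted *P* = 0.860) and changed sign, to -0.012, with the *Xist* level as a covariate. Of the exonic bases of *Slc2a1*, 2.99% overlap *Gm12868*, and reads there were not counted.

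*Slc2a4* (GLUT4), the insulin-responsive carrier of muscle and fat, had 23.8, 34.6, 35.8, and 33.4 CPM in KO mice 1 to 4. In flox mice 1 to 4 it had 25.4, 27.1, 27.6, and 21.7 CPM. The KO mice with high *Xist* were above all flox mice, whereas mouse 1 lay among them. The log2 fold change of 0.32 (SE 0.133, 95% interval 0.03 to 0.62) did not pass after adjustment (adjusted *P* = 0.299, exact permutation *P* = 0.114). It was 0.40 among mice of the high *Xist* class (adjusted *P* = 0.0432), without KO mouse 1 it was 0.44 (adjusted *P* = 0.0456), and with the covariate it was 0.26 (adjusted *P* = 0.184). Adipocyte transcripts were at 136.6 CPM in flox mouse 3, whereas the other 7 mice had 25.0 to 35.1 CPM, and *Slc2a4* in that mouse was 27.6 CPM, beside 27.1 CPM in flox mouse 2. *Fabp4* made up most of that sum outside flox mouse 3. The fat genes *Adipoq*, *Plin1*, and *Ucp1* had 38, 50, and 80 counts in KO mouse 4 and at most 2 in KO mice 2 and 3, and *Slc2a4* had 33.4 CPM in KO mouse 4 beside 34.6 and 35.8 CPM in the latter. The part of these transcripts in the result was not tested.

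*Slc2a3* (GLUT3), the high-affinity carrier of neurons, had few counts in whole kidney. It had 17, 28, 35, and 11 counts in KO and 19, 30, 13, and 18 counts in flox mice 1 to 4. The ranges overlapped, and the log2 fold change of 0.27 had a 95% interval from -0.59 to 1.12 (adjusted *P* = 0.821).

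*Slc2a5* (GLUT5), the fructose carrier of the brush border in the late proximal tubule, had 74.6, 64.4, 63.2, and 109.7 CPM in KO mice 1 to 4 and 82.7, 83.3, 107.1, and 89.7 CPM in flox mice 1 to 4. The highest value of all 8 was that of KO mouse 4, and 3 of 4 KO values lay below all flox values. The log2 fold change was -0.22 (SE 0.172, 95% interval -0.601 to 0.165, adjusted *P* = 0.634). It was -0.43 without KO mouse 4 (adjusted *P* = 0.104), -0.13 without flox mouse 3, and -0.070 in the high *Xist* class, and it passed in none of these.

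*Slc2a9* (GLUT9), a high-capacity urate carrier, had 11.5, 19.6, 19.2, and 22.6 CPM in KO mice 1 to 4 and 23.7, 27.2, 14.4, and 16.3 CPM in flox mice 1 to 4. Over all mice the genotypes overlapped, with a log2 fold change of -0.16 (SE 0.249, 95% interval -0.72 to 0.40, adjusted *P* = 0.8293). Within each *Xist* class the KO values lay below the flox values, which compares 3 with 2 mice of high and 1 with 2 mice of low *Xist*. The same held for 3 members, *Slc2a2*, *Slc2a9*, and *Slc2a12*, and for 11.1% of all tested genes. With the *Xist* level as a covariate the log2 fold change was -0.30 at an adjusted *P* of 0.0871, and among mice of the high *Xist* class -0.31 at 0.226, so neither fit passed. The promoter window of *Slc2a9*, printed above, holds TGACTCA, as do 5.20% of all windows. Any link of this motif to these values was not tested.

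*Slc2a12* (GLUT12), a class III hexose carrier, had 5.90, 9.19, 6.99, and 7.31 CPM in KO mice 1 to 4 and 12.5, 12.9, 10.3, and 9.44 CPM in flox mice 1 to 4. All KO values were below all flox values, although the nearest, 9.19 and 9.44 CPM, were close. The mean was 7.35 ± 1.37 against 11.3 ± 1.67 CPM, and the log2 fold change was -0.62 (SE 0.166, 95% interval -0.98 to -0.26). This did not pass after adjustment (adjusted *P* = 0.0885, exact permutation *P* = 0.0286). It passed with the *Xist* level as a covariate (-0.69, adjusted *P* = 0.00508) and in the 5 mice with high *Xist* (-0.70, adjusted *P* = 0.0306), and it did not pass in any of 8 fits that left out 1 mouse. Of its exonic bases, 9.61% overlap *Tbpl1* and were not counted.

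The remaining class III members were not called either. *Slc2a8* (GLUT8), a carrier of intracellular membranes, had 14.2 ± 4.07 against 15.2 ± 3.62 CPM (log2 fold change -0.10, 95% interval -0.61 to 0.40, adjusted *P* = 0.886). *Slc2a13* (HMIT) had 10.2 ± 3.98 against 9.98 ± 2.80 CPM (log2 fold change 0.03, 95% interval -0.59 to 0.64, adjusted *P* = 0.980), and KO mouse 4 held the highest value at 15.9 CPM. *Slc2a10* (GLUT10), the gene of arterial tortuosity syndrome, had 14, 7, 27, and 12 counts in KO and 25, 14, 27, and 8 counts in flox mice 1 to 4, with a 95% interval of its log2 fold change from -1.25 to 0.83. All 3 overlapped between genotypes.

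Both remaining SLC2 genes of the lists were outside the selection. *Slc2a6* (GLUT6) had 2.04 ± 0.490 against 1.596 ± 0.789 CPM (log2 fold change 0.34, adjusted *P* = 0.723), and *Slc2a7* was not tested, with 2 counts in 1 flox mouse and 0 in the other 7.

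Several members differed between the *Xist* classes. Within the flox mice, 6 of 10 members did not overlap between the 2 mice with low and the 2 with high *Xist*, against 50.6% of all tested genes, so this share was near the background. Lower in mice with low *Xist* were *Slc2a9* (15.3 against 25.5 CPM), *Slc2a13* (7.96 against 12), *Slc2a8* (12.5 against 17.9), *Slc2a12* (9.87 against 12.7), and *Slc2a1* (46.2 against 58.1). *Slc2a5* was higher in them (98.4 against 83.0 CPM), and *Slc2a2* overlapped (147.8 against 157.9 CPM). The summed level of 6 markers of the late proximal tubule (S3) also followed the classes. It was 2749 and 3140 CPM in flox mice with low and 791 and 957 CPM in those with high *Xist*. KO mouse 1 had 4512 CPM and the other KO mice 1057 to 1142 CPM, so the KO sums lay above the flox sums within each class. Most of the class difference lay in *Atp11a*, *Slc7a13*, *Cyp7b1*, and *Acsm3*. By contrast, *Slc5a1* of the same list overlapped between the flox classes (68.2 and 58.6 CPM with low, 64.9 and 71.0 CPM with high *Xist*), so the sum does not describe every S3 marker. The part of these markers in the differences of the members was not tested. KO mouse 1, the only low-*Xist* mouse of its genotype, had the lowest value of the KO mice for 6 members, against 33% of all tested genes, and lay below both low-*Xist* flox mice for 6, against 37.6%. It also had the highest mitochondrial share, 32.3%, and the classes were not tested.

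The genes around the carriers were taken from 6 lists with 61 genes, 56 of them tested, on sodium-coupled sugar and inositol carriers, hexose enzymes, urate handling, GLUT traffic and stability, transcription factors tied to GLUT genes, and the other SLC2 genes. Of the 56, 3 fell and 0 rose in edgeR's test, where 2.16% of all tested genes were called. With DESeq2, 6 fell and 0 rose, against 4.4% of all genes called. With the *Xist* level as a covariate 7 fell and 1 rose (6.82% of all genes called), and among mice of the high *Xist* class 6 fell and 2 rose (3.75%). Among the 7 sodium-coupled carriers and partners 2 fell, *Slc5a2* and *Pdzk1ip1* (MAP17, the accessory subunit of SGLT2), the latter from 287.1 ± 33.2 to 188.4 ± 15.9 CPM (log2 fold change -0.61, SE 0.104, adjusted *P* = 0.00972). Among 14 tested hexose enzymes 1 fell, *Sord*, which oxidizes sorbitol to fructose, from 521.5 ± 74.5 to 297.8 ± 39.0 CPM (log2 fold change -0.81, SE 0.126, adjusted *P* = 0.00567). The genotypes did not overlap for any of these 3.

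No gene passed in either direction among 12 tested genes of urate handling (median log2 fold change -0.22), 11 of GLUT traffic and stability (median -0.02), and 11 transcription factors (median -0.08), where the median over all tested genes was 0.00. The medians of the sodium-coupled carriers and the hexose enzymes were -0.25 and -0.22. At an unadjusted *P* under 0.05 were 4 of the 7 sodium-coupled carriers, 6 of 14 hexose enzymes, 1 gene of urate handling, 1 of GLUT traffic, and 0 transcription factors, against 14% of all tested genes. *Hnf4a*, a factor of proximal tubule and liver chosen after its values were seen, had a log2 fold change of -0.20 (adjusted *P* = 0.386).

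**Figure D5:**
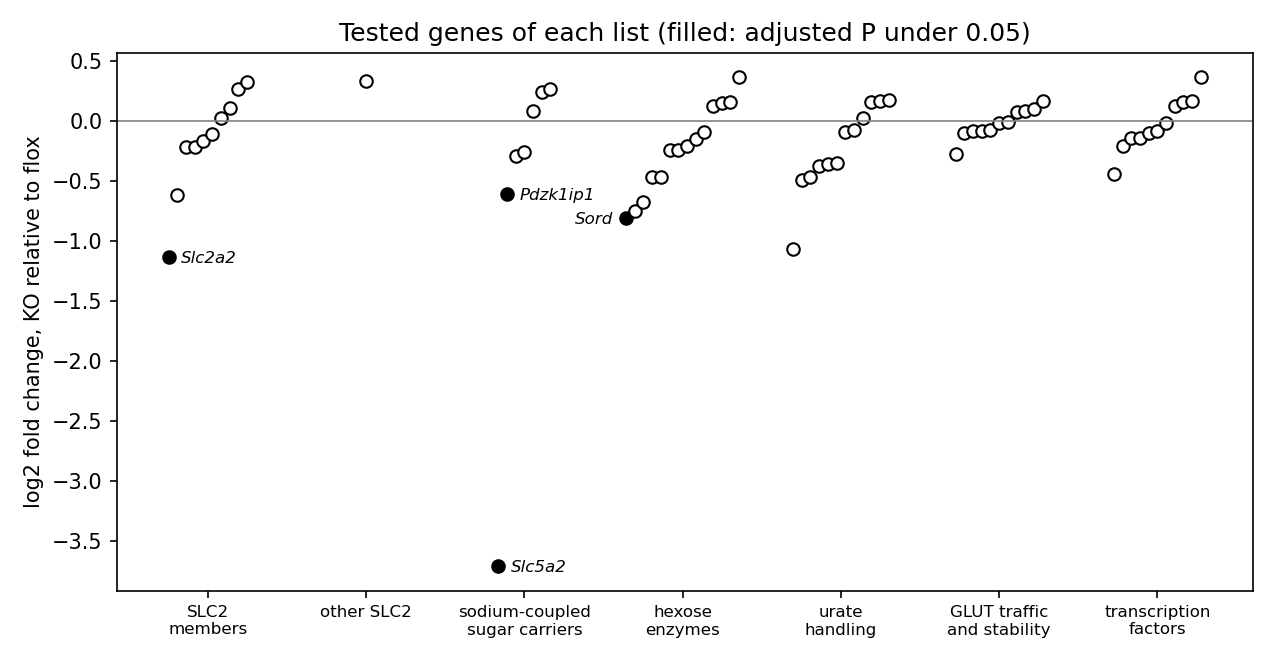
Log2 fold change (y axis), KO relative to flox mice, of each tested gene in the SLC2 members and 6 gene lists (x axis), with filled points at an adjusted *P* under 0.05. The filled points are *Slc2a2*, *Slc5a2*, *Pdzk1ip1*, and *Sord*, all below 0, and the highest open point lies at 0.37.

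The genes whose log2 CPM most resembled that of *Slc2a2* were sought among 9750 genes with a mean of at least 10 CPM. Over the 8 mice, the highest Pearson correlations were those of *Nectin3* (0.996), *Cdk18* (0.990), *Acaa1a* (0.984), *Bcar1* (0.983), and *Gaa* (0.981), each of which was lower in KO kidneys with log2 fold changes of -0.47 to -0.71. These values share the genotype difference among their points. After the genotype means were subtracted, the highest were *Mrps24* (0.990), *Tbc1d14* (0.985), *Tmem259* (0.979), *Rps16* (0.977), and *Tle1* (0.977), and the sets had no gene in common. These deviations of *Slc2a2* lay mainly in the KO mice (coefficient of variation 26.7% against 6.88%). Each set is the top 5 of 9750 genes over 8 mice, where high correlations arise by selection, and none was tested.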

How the data were processed

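Whole kidney RNA was rRNA-depleted and sequenced in pairs of 36-base reads. The authors deposited unnormalized read counts per gene name, made with featureCounts 2.0.1 on the exons of Ensembl GRCm38, with each read of a pair counted separately, strand ignored, and reads on exons of several genes left out. The aligner behind these counts is not given in the sources used here, and the mapping in the published methods (CLC Genomics Workbench, mm10) is a different pipeline from featureCounts. The submitters' processing notes list Subread 2.0.2 and edgeR 3.36.0.

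All 8 mice entered 1 fit with edgeR 4.0.16 (R 4.3.3, limma 3.58.1; filterByExpr, TMM factors, robust quasi-likelihood test, no covariates). A gene was called when its *P*, adjusted by the Benjamini-Hochberg method over all tested genes, was under 0.05. CPM are TMM-normalized and were divided by exon length for comparisons between genes. The SE was obtained from the log2 fold change and F. Exact permutation tests were two-sided over all 70 assignments. Nothing states litters, so *P* values measure the spread between these mice. No pair of libraries agreed within sampling noise. Mice with at least 1000 *Xist* counts were called high.

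The text names all members, *Maf*, the list genes that passed, *Slc5a1*, *Slc5a2*, *Slc2a6*, *Slc2a7*, and the 5 genes most like each called member by each of 2 correlations. The members and lists were chosen with earlier results of these data known. On simulated counts of 19734 genes, the test recovered 65% of 2-fold and 86% of 4-fold changes, with 8 false calls among 159. DESeq2 1.42.0 and other factors, filters, and subsets of mice were tried as alternatives. Figures were drawn with matplotlib 3.10.9.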

Additional observations from a re-analysis of the deposited data

How the results depend on the processing

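*Slc2a2* kept its direction in 12 alternative settings, with log2 fold changes of -1.22 to -1.03, and in 8 fits that each left out 1 mouse, with -1.30 to -0.98, and it passed in 11 and 8 of these. The exception was the fit with the replicate number as a block (-1.17, adjusted *P* = 0.056). No label states that the numbers pair mice. The correlations of the deviations of mice with the same number were -0.37, 0.15, -0.11, and -0.33. They cannot show whether the numbers pair mice, because the KO and flox mice numbered 1, 3, and 4 differ in *Xist* class. The block on the replicate number left 0 members, 1 list gene, and 129 genes called. *Slc2a12* passed with DESeq2 (-0.62), with genes of at least 1 count (-0.62), with the *Xist* level as a covariate (-0.69), and in the mice with high *Xist* (-0.70), where *Slc2a4* also passed (0.40). The members called numbered 2 with DESeq2, 2 with genes of at least 1 count, 2 with the covariate, and 3 with high *Xist* only, and the list genes called numbered 6, 5, 8, and 8. All genes called numbered 886 with DESeq2, 1374 with the covariate, 789 in the mice with high *Xist*, and 180 at an adjusted *P* under 0.01, against 436. Leaving out 1 mouse gave 239 to 452 genes (239 without KO mouse 3, 256 without mouse 2, and 285 without flox mouse 3), 1 to 2 members (2 without KO mouse 1, with *Slc2a4* at 0.44), and 3 to 4 list genes. The ranges over these 8 fits were -0.75 to -0.52 for *Slc2a12*, -0.43 to -0.13 for *Slc2a5*, and 0.26 to 0.44 for *Slc2a4*. Signs changed for *Slc2a1* (-0.012 with the covariate, -0.044 to 0.26 leaving out 1 mouse) and *Slc2a13* (-0.012 with the block, -0.069 with the covariate, -0.12 with high *Xist* only, -0.27 to 0.20 leaving out 1 mouse). They also changed when 1 mouse was left out for *Slc2a3* (-0.050 to 0.49), *Slc2a8* (-0.23 to 0.057), *Slc2a9* (-0.30 to 0.0083), and *Slc2a10* (-0.69 to 0.038), of which none passed in any fit. Without length scaling, the shares were 13.7% for *Slc2a1*, 40.2% for *Slc2a2*, 6.69% for *Slc2a4*, and 24.0% for *Slc2a5* in flox kidneys, and 19.6% for *Slc2a1*, 24.0% for *Slc2a2*, 11.2% for *Slc2a4*, and 27.3% for *Slc2a5* in KO kidneys. The cause of these differences was not tested. *Slc2a10* was not tested where at least 10 counts in every mouse were required. *Slc2a3* and *Slc2a10* had at most 35 and 27 counts per mouse.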

Other observations

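Some genes of the lists around the SLC2 carriers passed when the *Xist* level was taken into account, and were chosen here after their values were seen. Both fits called 8 of 56 list genes, where they called 6.82% of all genes with the covariate and 3.75% in the mice with high *Xist*, against 2.16% over all 8 mice. *Mlxipl* (ChREBP, a glucose-responsive transcription factor) rose, with log2 fold changes of 0.53 (adjusted *P* = 0.00107) with the *Xist* covariate and 0.64 (adjusted *P* = 0.000294) in the 5 mice with high *Xist*, against 0.37 (adjusted *P* = 0.594) over all 8 mice. *Abcc4* (MRP4, an exporter of urate and other organic anions) fell, with -0.64 (adjusted *P* = 0.000949) and -0.78 (adjusted *P* = 0.000489), against -0.47 (adjusted *P* = 0.729) over all 8 mice. With the covariate, *Slc37a4*, which carries glucose 6-phosphate into the endoplasmic reticulum, fell with -0.48 (adjusted *P* = 0.00954), *Abcg2*, a urate exporter, with -0.34 (adjusted *P* = 0.00715), and *Slc5a11*, a sodium-coupled inositol carrier, with -0.35 (adjusted *P* = 0.042). These 3 did not pass in the 5 mice with high *Xist*, at -0.34 (adjusted *P* = 0.0698), -0.30 (adjusted *P* = 0.0616), and -0.20 (adjusted *P* = 0.348), nor over all 8 mice, at adjusted *P* values of 0.0562, 0.0642, and 0.473. In the 5 mice with high *Xist*, *Slc22a8* (OAT3, a basolateral organic anion carrier) fell with -0.97 (adjusted *P* = 1.1e-05) and *Pck1*, an enzyme of gluconeogenesis, with -0.39 (adjusted *P* = 0.0217). Neither passed with the covariate, at -1.70 (adjusted *P* = 0.142) and -0.71 (adjusted *P* = 0.0612), nor over all 8 mice, at adjusted *P* values of 0.528 and 0.068.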
